A study of Mus musculus with 57 samples.

Results

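The 100 array probes described here had lower median intensities in proton-irradiated than in sham-irradiated Lewis lung carcinoma tumours of both old and adolescent mice. They were chosen by their measured values. The intensities of 45281 probes were scaled so that each of 57 arrays had the same distribution, and were put on the log2 scale. The 20591 probes detected at p below 0.05 on at least 10 arrays were kept. For each kept probe the median over proton arrays minus the median over the arrays of sham tumours given 3 fractions was taken at each age, and the 100 probes with the lowest value of the higher difference were retained. These differences chose the probes, so they are given only as a description. Another set of sham tumours, labelled acute, took no part in the choice, and the comparisons below use it.

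Lewis lung carcinoma is a mouse lung tumour cell line that is grown as a transplant, and whole tumour pieces were profiled, 1 array for each tumour. Of 4 epithelial markers, Krt8, Krt18 and Cdh1 passed the detection filter and Epcam did not. The tumours came from male mice, which the labels call old or adolescent (young) with no age in weeks and no strain. At each age 10 tumours received 3 fractions of 0.5 Gy protons. The 9 sham x3 tumours at each age carry the label of 0 Gy in 3 fractions, and the sham acute tumours, 10 from old and 9 from adolescent mice, are labelled as untreated. Among the old sham acute tumours, 1 description states 0 Gy acute and the other 9 descriptions state no dose, so that for these 9 the absence of a dose rests on their other labels. The labels give the same tumour line and sex for all sets, and name no allele and no agent other than the protons. The sets hold separate ranges of description numbers, so any difference in handling between sets cannot be told apart from the treatment. The labels do not say whether tumours of a set shared a cage or a processing day, and p-values measure the spread between these tumours.

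Of the 100 probes, 81 carried a single gene symbol, for 77 genes, and 19 carried none. Crebbp encodes a histone acetyltransferase that acts as a coactivator for many transcription factors, Ncl encodes nucleolin, a nucleolar protein of ribosome production, and Ercc5 encodes an endonuclease of nucleotide excision repair. Ionizing radiation breaks DNA and sets off checkpoint, repair and p53 responses in cells of all kinds, and a tumour also holds macrophages, vessels and fibroblasts whose own transcripts appear in the same RNA. In such pieces, fewer cells of a type and less RNA per cell cannot be told apart.

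Crebbp, Prrc2c, Gpatch11 and Zfhx2 were each represented by 2 of the 100 probes. Whether the probes of a pair overlap in sequence was not tested. The start regions of these 4 genes are shown because they are the genes chosen more than once. Each window holds 250 bases before and 50 bases after a transcript start in RefSeq annotation of mouse build GRCm38.p6, given 5′ to 3′ on the gene's strand. Capitals mark the motif GGGCGG, searched on both strands, so CCGCCC is also capitalized, and neighbouring matches may overlap. The Crebbp window lies at chr16:4213355-4213654 on the minus strand, Prrc2c at chr1:162740507-162740806 on the minus strand, Gpatch11 at chr17:78835266-78835565 on the plus strand and Zfhx2 at chr14:55091999-55092298 on the minus strand.
Crebbp: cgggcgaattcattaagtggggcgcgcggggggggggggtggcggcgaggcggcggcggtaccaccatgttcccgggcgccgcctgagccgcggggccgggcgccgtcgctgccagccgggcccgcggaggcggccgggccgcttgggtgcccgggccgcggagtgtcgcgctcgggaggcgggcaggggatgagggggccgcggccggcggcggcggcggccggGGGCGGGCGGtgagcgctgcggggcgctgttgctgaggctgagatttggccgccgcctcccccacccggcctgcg
Prrc2c: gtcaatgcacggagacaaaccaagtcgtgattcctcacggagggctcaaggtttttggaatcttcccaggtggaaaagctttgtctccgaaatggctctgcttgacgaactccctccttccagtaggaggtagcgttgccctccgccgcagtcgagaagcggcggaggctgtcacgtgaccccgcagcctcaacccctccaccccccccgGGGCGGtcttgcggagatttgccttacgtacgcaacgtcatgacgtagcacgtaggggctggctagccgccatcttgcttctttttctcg
Gpatch11: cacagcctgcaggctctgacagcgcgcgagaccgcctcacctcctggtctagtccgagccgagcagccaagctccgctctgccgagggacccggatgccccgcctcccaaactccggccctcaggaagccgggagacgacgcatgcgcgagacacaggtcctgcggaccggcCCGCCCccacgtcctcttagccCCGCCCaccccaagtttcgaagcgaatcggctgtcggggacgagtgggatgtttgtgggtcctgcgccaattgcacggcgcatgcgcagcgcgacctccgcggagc
Zfhx2: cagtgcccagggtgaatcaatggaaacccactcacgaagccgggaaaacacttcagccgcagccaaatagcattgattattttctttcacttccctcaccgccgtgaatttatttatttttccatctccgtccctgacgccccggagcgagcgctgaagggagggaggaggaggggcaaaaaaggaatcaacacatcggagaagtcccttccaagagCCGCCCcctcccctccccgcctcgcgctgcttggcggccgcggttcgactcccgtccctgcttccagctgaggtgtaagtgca

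The 4 windows were rich in G and C, with 82.0% for Crebbp, 69.3% for Gpatch11, 58.7% for Prrc2c and 57.3% for Zfhx2. Start windows were found for 68 of the 77 genes, 92 windows in all. Their median G and C content was 62%, against 60.3% for the 11219 windows of genes with a kept probe and 52.7% for all 32851 mouse windows. GGGCGG or its complement stood in 56.5% of the windows of the chosen genes, against 60.9% for genes with a kept probe and 35.7% for all windows. CCAAT stood in 47.8%, against 37.5% and 37.4%, and CACGTG in 16.3%, against 9.80% and 7.15%, both motifs also read on both strands. CCGGAA stood in 25% against 26.1% and 14.9%, and TATAAA in 7.61% against 7.96% and 13.6%. A match to these letters is a description and not a binding site.

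The differences that chose the probes were moderate in size. On the scale of the rule, proton minus sham x3 ran from -1.19 to -0.30 in old mice with a median of -0.42, and from -0.81 to -0.30 in adolescent mice with a median of -0.37. Among all kept probes the medians were -0.003 in old and 0.008 in adolescent mice, and 5864 probes (28.5%) were lower at both ages. Whether that share exceeds what unrelated differences at the ages would give was not tested. The choice took the extreme end of these differences, and its edge was gradual. Just inside it lay Myo1g, a myosin of blood cells, with a higher difference of -0.298, Mrpl2, a mitochondrial ribosomal protein, with -0.298, and ILMN_1253336, a probe without a symbol, with -0.297. Just outside lay Coa7 at -0.297, Hyal2 at -0.296 and Agtrap at -0.296.

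**Figure D1:**
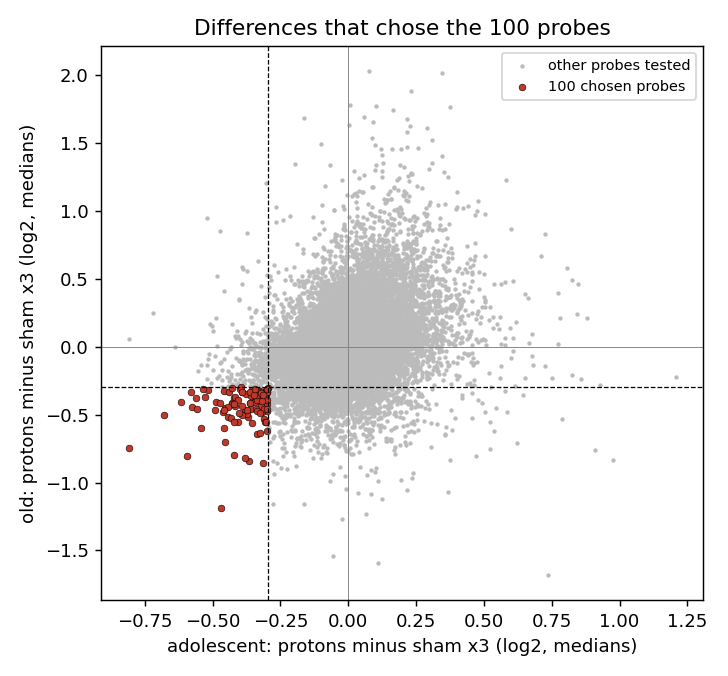
Proton minus sham x3 difference of medians (log2, quantile-scaled) for every kept probe, with adolescent mice on the horizontal axis and old mice on the vertical axis; the 100 chosen probes are red and dashed lines mark the edge of the choice at -0.297. The 100 probes fill the lower left corner, at or below -0.30 on both axes, and lie next to many other probes that were lower at both ages.

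The chosen probes were bright. Their median level was 8.93 log2 units, against 6.85 for all kept probes, and 97 of them were detected on all 57 arrays, where 51.6% of the kept probes were. From here on all levels and differences are log2 intensities after background correction from the detection p-values and quantile scaling (neqc), the scale of all tests. Tests are limma's moderated tests in a model of the 6 sets over 57 arrays, with p-values adjusted over all 20591 probes by Benjamini-Hochberg, and a probe is called when its adjusted p is below 0.05.

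Taken as a mean over the 100 probes, relative to each probe's mean over all arrays, old proton tumours ran from -0.461 to 0.333 with a median of 0.124, old sham x3 tumours from 0.098 to 0.766 with a median of 0.624, and old sham acute tumours from -0.474 to 0.077 with a median of -0.177. The old sham x3 set stood above both other old sets apart from its replicate 9, at 0.098. In adolescent mice the proton tumours ran from -0.506 to -0.07 with a median of -0.351, the sham x3 tumours from -0.217 to 0.262 with a median of 0.146, and the sham acute tumours from -0.448 to 0.006 with a median of -0.113. The adolescent proton and sham acute ranges overlapped. Old proton replicates 8 and 9, at -0.461 and -0.341, were below the other 8 old proton tumours, and these 2 arrays and replicate 10 bear the description numbers 69, 70 and 71 while replicates 1 to 7 bear 0 to 6. On the mean correlation with all other arrays of the series, old sham x3 replicates 6 and 7 were lowest, at 0.858 and 0.822. Adolescent sham x3 replicate 5 had 0.925. Without these 3 sham x3 arrays the rule kept 71 of the 100 probes, and without the old arrays numbered 69 to 73 it kept 74. On neqc values it kept 44, on median-scaled values 31 and on the authors' processed values 65, and 7 probes were chosen under all 8 alternatives of the choice.

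**Figure D2:**
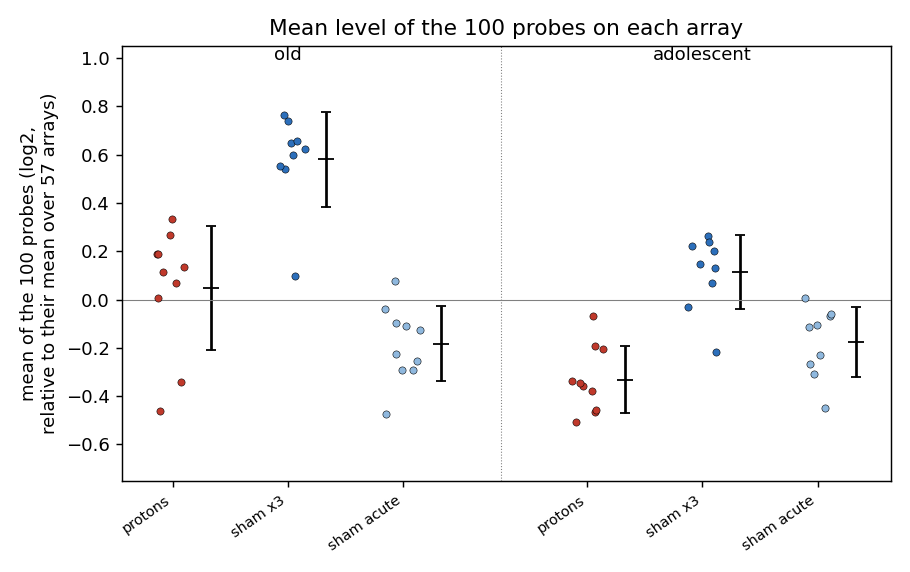
Mean of the 100 probes on each array (log2, relative to their mean over 57 arrays), old mice on the left and adolescent mice on the right, with protons, sham x3 and sham acute in each; points are tumours and bars are the mean and SD of the set. The old sham x3 tumours reach 0.766 and are the highest set, while old protons have a median of 0.124 and old sham acute -0.177.

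The position of the acute sham tumours differed between the ages. Among the 100 probes, the old sham acute median was the lowest of the 3 old medians for 73 and lay between the others for 27, where it was lowest for 33.8% of all kept probes. In adolescent mice the sham acute median was lowest for 26, between for 66 and highest for 8, where it was lowest for 41.6% of all kept probes. The sham x3 median was highest of the 3 for all 100 probes in old mice and for 92 in adolescent mice. Among all kept probes it was highest for 38.5% and 27.7%. The rule, which set proton against sham x3 medians, favours this. Over all 6 sets the old sham x3 tumours had the highest median for 91 of the 100 probes and for 29.1% of all kept probes. The adolescent proton tumours had the lowest median for 55 of the 100 and for 16% of all kept probes. The rule favours high sham x3 and low proton medians. In old mice the probes were thus lower after protons than in the sham x3 set, by the choice, but most were above the sham acute set on this scale. This position changed with the scaling and with a covariate, as given below, and its cause was not tested. With only the old sham acute array whose description states 0 Gy, 0 of the 100 were called in either direction in old mice, and the median difference was -0.08.

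Against the sham acute tumours of old mice, 23 of the 100 probes were higher after protons and 1, Tbcel, was lower, while 8.21% of all probes were called higher and 11.4% lower. The median difference of the 100 was 0.18, against -0.02 for all probes, and 74 of the 100 were above 0. In adolescent mice 10 of the 100 were lower after protons and 3 were higher, while 7.14% of all probes were called lower and 8.29% higher. There the median difference was -0.15, against 0.02 for all probes, and 71 of the 100 were below 0. No probe was called lower at both ages by limma, and at an unadjusted p below 0.05 there were 0 such. The share of all probes lower at both ages by these calls is not given, so the 0 is a description. At that looser threshold 34 of the 100 were higher and 2 lower in old mice, against 13.8% and 17.7% of all probes. In adolescent mice 6 were higher and 23 lower, against 15.7% and 13.2% of all probes. The proton arrays took part in the choice and appear in these comparisons too, so only the control tumours are new here.

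The old count moved with arrays and with a measure of array quality. Without old proton replicates 8 to 10, the arrays numbered 69 to 71, 33 probes were higher and 0 lower (Tbcel no longer passed). Without old sham acute replicate 10, whose detected share was 35.4% against a set median of 39.3%, 30 were higher. The share of all probes called without these arrays is not given, so the rise cannot be read as particular to the 100 probes. The share of probes detected averaged 35.6% ± 1.96 in old proton tumours, 35.9% ± 3.02 in old sham x3 tumours and 39.1% ± 1.45 in old sham acute tumours (SD, n = 10, 9 and 10). With that share as a covariate, the old comparison called 9 of the 100 higher and 4 lower, against 5.22% and 8.20% of all probes. In adolescent mice the share was 41.2% ± 0.61 in proton, 40.6% ± 1.26 in sham x3 tumours and 40.2% ± 1.80 in sham acute ones (SD, n = 10, 9 and 9), and with the covariate 5 probes were lower, where 8.31% of all were. With median scaling in place of quantile scaling, 21 of the 100 were higher and 5 lower in old mice, but 34.8% of all probes were then higher and 11.7% lower. The median difference in old mice was then 0.07 for the 100 and 0.17 for all probes, so that the 100 lay below the rest under this scaling and above it under quantile scaling. In adolescent mice it was -0.23 for the 100 and -0.05 for all probes.

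**Figure D3:**
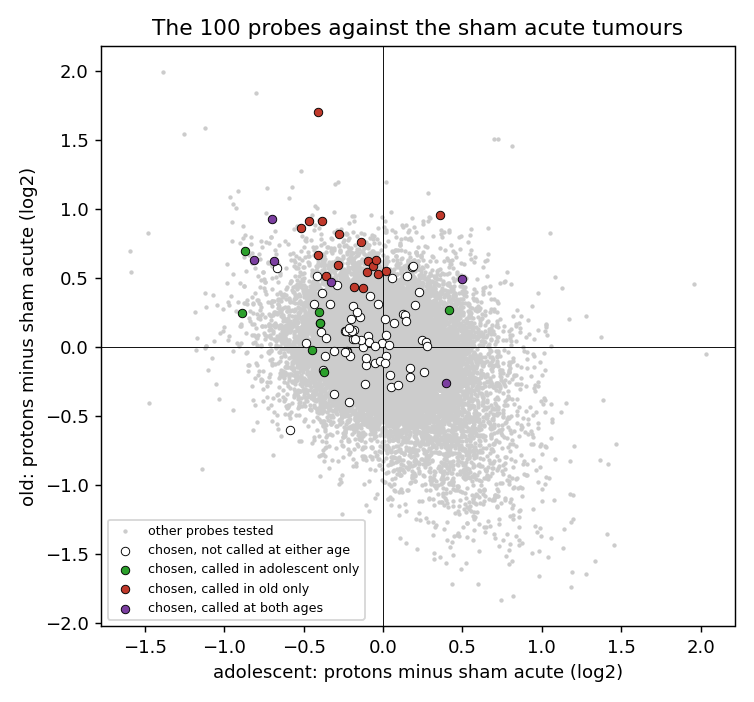
Proton minus sham acute difference (log2) of every kept probe, adolescent mice on the horizontal axis and old mice on the vertical axis; the 100 chosen probes are circles filled by whether they were called at an adjusted p below 0.05. More circles lie above 0 in old mice, 74 of 100, and below 0 in adolescent mice, 71 of 100.

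The difference between the ages in the proton effect was tested directly, as the old minus the adolescent proton minus sham acute difference. It was positive and past the threshold for 24 of the 100 probes, where 9.97% of all probes were, and negative for 1, Tbcel, where 13.5% were. The median over the 100 was 0.33, against -0.03 for all probes, and 0.32 against 0.26 with median scaling, where 29.3% of all probes were higher. Age alone, in sham acute tumours that took no part in the choice, gave 13 probes lower and 13 higher in old than in adolescent tumours, where 10.7% and 10.5% of all probes were called. The median age difference of the 100 was 0.07, against 0.01 for all.

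By textbook role, assigned after the probes were known, the largest group of named genes was transcription and chromatin, with 18 genes on 20 probes. Of these probes 4 were higher in old mice after protons than in sham acute tumours and 0 lower, and in adolescent mice 2 were lower and 1 higher. The percentages of all probes called, given above, apply to these and to the counts of the other roles. They also apply to the counts below for gene lists and for probes without a symbol. All of these counts are descriptions of small sets.

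Crebbp, the acetyltransferase, was measured by 2 of the chosen probes, whose values moved together over the 19 sham acute arrays with set means removed (r = 0.94, a description). On ILMN_1255457 the old proton tumours ran from 5.67 to 7.92 with a median of 7.43, the old sham x3 tumours from 7.26 to 8.67 with a median of 8.12, and the old sham acute tumours from 6.2 to 8.07 with a median of 6.71. Adolescent proton tumours ran from 6.47 to 8.14 with a median of 7.55, sham x3 tumours from 7.7 to 8.66 with a median of 8.22, and sham acute tumours from 7.47 to 8.32 with a median of 7.87. All 3 sets overlapped at each age, and the lowest old proton value, 5.67, belonged to replicate 8. Neither Crebbp probe passed the test against sham acute tumours, with differences of 0.31 ± 0.22 (SE, adjusted p = 0.342) and 0.18 ± 0.20 (adjusted p = 0.587) in old mice. Both passed between the old and adolescent sham acute sets. The old minus adolescent difference was -0.95 ± 0.22 for the first probe (SE, adjusted p = 0.00155) and -0.66 ± 0.20 for the second (adjusted p = 0.0149).

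Ino80d, a subunit of the INO80 chromatin remodelling complex, had 6.57 to 8.44 with a median of 7.61 in old proton tumours, against 6.02 to 7.53 with a median of 7.05 in old sham acute tumours. It was higher by 0.67 ± 0.16 (SE, adjusted p = 0.00182) in the irradiated tumours and was also lower in old than in adolescent sham acute tumours, by a difference of -0.50 (adjusted p = 0.0221). Ankrd11, a chromatin regulator, was higher in old proton tumours than in old sham acute tumours by 0.60 (adjusted p = 0.00863). Polr1a, the largest subunit of RNA polymerase I, was higher by 0.54 in the same comparison (adjusted p = 0.0121). Old sham x3 medians were 8.20 for Ino80d, 8.52 for Ankrd11 and 10.6 for Polr1a, above both other old sets.

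Zbtb21, a zinc finger transcription factor, moved in opposite ways at the ages. It had medians of 8.27 in old proton tumours, 8.67 in old sham x3 tumours and 7.87 in old sham acute tumours, and of 7.46 in adolescent proton, 7.99 in adolescent sham x3 and 7.93 in adolescent sham acute tumours. The proton minus sham acute difference was 0.47 ± 0.11 in old mice (SE, adjusted p = 0.00237) and -0.33 ± 0.12 in adolescent mice (adjusted p = 0.0483). Atmin, an ATM-interacting factor that also acts as a transcription factor, was lower in adolescent mice, with a difference of -0.37 ± 0.11 (SE, adjusted p = 0.0133) and had a difference of -0.18 ± 0.11 in old mice (adjusted p = 0.248). Pknox1, a homeodomain protein, was higher in adolescent proton tumours by 0.41 ± 0.14 (adjusted p = 0.0358) and was also higher in old than in adolescent sham acute tumours by 0.73 ± 0.14 (adjusted p = 1.31e-04).

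Bcl6, the transcriptional repressor of germinal centre cells, Mllt3, a subunit of the super elongation complex, Nfatc3, a calcium-regulated transcription factor, Hoxb4, a homeobox factor, and Kcnq1ot1, a long noncoding RNA of an imprinted domain, were not called at either age against sham acute tumours. In old mice their differences were 0.00, 0.18, 0.23, -0.11 and 0.05, and in adolescent mice -0.13, 0.07, 0.14, 0.01 and 0.25. Nfatc3 was higher in old than in adolescent sham acute tumours by 0.31 (adjusted p = 0.0361). Creb5, a member of the CREB family, had a larger age difference of 0.85 ± 0.21 (adjusted p = 0.00279). Against sham acute tumours the 2 Zfhx2 probes differed by 0.30 and 0.26 in old mice and by -0.19 and -0.16 in adolescent mice. None of these passed, with adjusted p from 0.261 to 0.599.

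RNA and translation gave 10 genes on 12 probes. Of these 3 were higher in old mice, Mrpl2, Mterf4 and Rmnd1, all nuclear genes of mitochondrial translation, and none was lower, while in adolescent mice none was called. Mrpl2 had 10.78 to 11.93 with a median of 11.35 in old proton tumours, against 10.46 to 11.32 with a median of 10.58 in old sham acute tumours. The difference was 0.63 ± 0.13 (SE, adjusted p = 2.15e-04), Mterf4 gave 0.44 ± 0.09 (adjusted p = 5.22e-04) and Rmnd1 0.43 ± 0.15 (adjusted p = 0.0364). Old sham x3 medians were 11.75 for Mrpl2, 10.31 for Mterf4 and 10.08 for Rmnd1, and the old proton medians of 11.35, 9.96 and 9.72 lay between both sham sets. Of the 95 probes for oxidative phosphorylation, none of them among the 100, 19 were higher and 7 lower in old mice, and 11 higher and 14 lower in adolescent mice.

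Prrc2c, an RNA-associated protein with proline-rich coiled coils, had a wide spread in the old tumours. ILMN_1239599 ran from 5.78 to 8.47 with a median of 7.75 in old proton tumours, from 7.55 to 9.1 with a median of 8.84 in old sham x3 tumours, and from 5.49 to 8.04 with a median of 7.05 in old sham acute tumours. The old differences against sham acute were 0.58 ± 0.24 (SE, adjusted p = 0.0793) and, on ILMN_1241229, 0.59 ± 0.22 (adjusted p = 0.0538). The lowest old proton value on both probes was replicate 8's. Gpatch11, a G-patch protein, differed by 0.11 and 0.12 on its probes in old mice and by -0.24 and -0.19 in adolescent mice, with adjusted p from 0.127 to 0.518.

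Ncl, the nucleolin gene, had a median of 10.3 in old proton, 10.7 in old sham x3 and 10.1 in old sham acute tumours, and of 9.88 in adolescent proton, 10.3 in adolescent sham x3 and 10.3 in adolescent sham acute tumours. Its adolescent proton minus sham acute difference of -0.39 ± 0.15 did not pass (SE, adjusted p = 0.0672). Rps24, a ribosomal protein of the small subunit, was the only chosen probe among 78 kept probes for ribosomal proteins. It had a difference of 0.31 in old mice (adjusted p = 0.258) and -0.33 in adolescent mice (adjusted p = 0.255). In old mice 11 of these 78 were higher and 1 lower, against 5 higher and 5 lower in adolescent mice.

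The 3 genes of DNA repair and telomeres were called at neither age against sham acute tumours. Tnks, tankyrase, a poly-ADP-ribosylating enzyme of telomeres, ran from 4.66 to 7.89 with a median of 7.17 in old proton tumours, from 6.42 to 8.17 with a median of 7.92 in old sham x3 tumours and from 5.9 to 7.8 with a median of 6.99 in old sham acute tumours. Its differences were 0.06 ± 0.25 in old and -0.19 ± 0.25 in adolescent mice (SE, adjusted p = 0.909 and 0.678). Parp3, a poly-ADP-ribose polymerase of strand break repair, differed by -0.29 in old and 0.05 in adolescent mice, and Ercc5 by -0.06 in old and -0.21 in adolescent mice. Parp3 was higher in old than in adolescent sham acute tumours by 0.51 (adjusted p = 0.0496). Of 27 kept probes for a broader list of repair genes, none among the 100, 1 was higher and 4 lower in old mice and 1 higher and 1 lower in adolescent mice. Of 30 kept probes for p53 targets, also none among the 100, 0 were higher and 3 lower in old mice and 0 higher and 1 lower in adolescent mice. Of all kept probes, 8.21% were called higher and 11.4% lower in old mice, and 8.29% higher and 7.14% lower in adolescent mice.

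Protein folding, turnover and traffic gave 10 genes, of which 2 were higher and 1 lower in old mice and 2 were higher and 2 lower in adolescent mice. Zdhhc5, a palmitoyltransferase, was the only probe of the 100 called higher at both ages. It had 7.62 to 8.88 with a median of 8.39 in old proton tumours, 7.93 to 9.05 with a median of 8.8 in old sham x3 tumours, and 7.49 to 8.31 with a median of 7.87 in old sham acute tumours. The differences were 0.49 ± 0.15 in old mice (SE, adjusted p = 0.0135) and 0.50 ± 0.15 in adolescent mice (adjusted p = 0.0190).

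Tbcel, a tubulin cofactor E-like protein, was lower at one age and higher at the other. Old proton tumours ran from 10.34 to 10.93 with a median of 10.59, old sham x3 tumours from 10.58 to 11.27 with a median of 11.09 and old sham acute tumours from 10.61 to 11.1 with a median of 10.85. Adolescent proton tumours ran from 10.15 to 10.93 with a median of 10.48, sham x3 tumours from 10.46 to 11 with a median of 10.81 and sham acute tumours from 9.97 to 10.3 with a median of 10.16. The old and adolescent sham acute tumours did not overlap. The proton difference was -0.26 ± 0.09 in old mice (SE, adjusted p = 0.0422) and 0.40 ± 0.10 in adolescent mice (adjusted p = 0.00277), and the age difference in sham acute tumours was 0.74 ± 0.10 (adjusted p = 1.95e-07).

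Psmb10, a catalytic subunit of the immunoproteasome, was higher in old proton tumours than in old sham acute tumours by 0.53 ± 0.14 (SE, adjusted p = 0.00555). Usp37, a deubiquitinase, and Plekhm1, an adaptor of lysosome and autophagosome fusion, were lower in adolescent proton tumours, with differences of -0.40 (adjusted p = 0.0452) and -0.40 (adjusted p = 0.00885). Hsph1, a heat shock protein of the HSP110 family, had differences near 0, 0.03 ± 0.17 in old and -0.01 ± 0.17 in adolescent mice (SE). Its medians were 10.9 in old proton, 11.3 in old sham x3 and 10.9 in old sham acute tumours. Of 20 kept probes for the heat shock and unfolded protein list, which includes Hsph1, 0 were higher and 3 lower in old mice and 1 was higher in adolescent mice.

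The immune group held 8 genes, of which 2 were higher in old mice and none was lower, and none was called in adolescent mice. Ncf4, a cytosolic subunit of the phagocyte NADPH oxidase, had 8.59 to 9.73 with a median of 9.42 in old proton tumours, 9.14 to 10.35 with a median of 9.97 in old sham x3 tumours and 8.13 to 9.24 with a median of 8.81 in old sham acute tumours. Its difference was 0.51 ± 0.17 in old mice (SE, adjusted p = 0.0254) and -0.36 ± 0.17 in adolescent mice (adjusted p = 0.162). Fcrls, an Fc receptor-like scavenger receptor of macrophages and microglia, was higher by 0.96 ± 0.35 in old mice (adjusted p = 0.0451), and its old proton range of 9.85 to 12.72 overlapped the old sham acute range of 8.93 to 11.15.

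H2-Eb1, a class II antigen presentation molecule, had wide ranges in every set, with 7.77 to 10.93 in old proton, 8.07 to 11.65 in old sham x3 and 8.34 to 11.29 in old sham acute tumours. Its differences were -0.60 ± 0.50 in old and -0.58 ± 0.51 in adolescent mice (SE, adjusted p = 0.445 and 0.489). Cx3cr1, the fractalkine receptor of monocytes and macrophages, differed by -0.10 in old and -0.02 in adolescent mice, and P2ry14, a nucleotide sugar receptor, by 0.03 in old and -0.48 in adolescent mice. Of 13 kept probes for macrophage markers, none among the 100, 1 was higher and 0 lower in old mice and 1 was higher and 1 lower in adolescent mice. The summed macrophage signal ran from 9231 to 26000 in old proton, from 7624 to 18570 in old sham x3 and from 9057 to 22410 in old sham acute tumours, so the sets overlapped. In adolescent mice it ran from 7938 to 30930 in proton, from 9474 to 21530 in sham x3 tumours and from 10560 to 22980 in sham acute tumours. None of the markers of B and plasma cells passed the filter on detection. The part of macrophage content in the values of these immune genes was not tested.

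Signalling, adhesion and cytoskeleton gave 15 genes, of which 4 were higher in old mice and none lower, and 2 were lower in adolescent mice and none higher. Syne2, nesprin-2, which links the nuclear envelope to the cytoskeleton, had 6.94 to 9.01 with a median of 8.31 in old proton tumours, 8.26 to 9.45 with a median of 8.96 in old sham x3 tumours and 6.26 to 8.29 with a median of 7.24 in old sham acute tumours. In adolescent mice it had 7.33 to 8.3 with a median of 7.76 in proton, 7.89 to 9.23 with a median of 8.7 in sham x3 and 7.8 to 8.89 with a median of 8.24 in sham acute tumours. The difference was 0.92 ± 0.20 in old mice (SE, adjusted p = 8.59e-04) and -0.46 ± 0.21 in adolescent mice (adjusted p = 0.128). Old sham acute tumours were lower than adolescent ones by a difference of -0.94 ± 0.21 (adjusted p = 9.03e-04), and the old minus adolescent proton effect was 1.38 ± 0.29 (adjusted p = 3.69e-04).

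Afap1, an actin filament and Src adaptor, and Cacna2d1, a calcium channel subunit, were called in opposite directions at the ages. Afap1 had medians of 7.77 in old proton, 8.37 in old sham x3 and 6.87 in old sham acute tumours, and of 6.39 in adolescent proton, 7.25 in adolescent sham x3 and 7.39 in adolescent sham acute tumours. Its differences were 0.93 ± 0.23 in old (SE, adjusted p = 0.00338) and -0.70 ± 0.24 in adolescent mice (adjusted p = 0.0398), and the difference between the ages was 1.62 ± 0.34 (adjusted p = 2.68e-04). Cacna2d1 had 7.85 to 9.86 with a median of 9.26 in old proton and 7.45 to 9.12 with a median of 8.52 in old sham acute tumours, with a difference of 0.62 ± 0.21 (adjusted p = 0.0311). In adolescent mice its difference was -0.69 ± 0.22 (adjusted p = 0.0254), with 6.92 to 8.3 in proton and 8.04 to 8.96 in sham acute tumours.

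Igfbp5, an IGF binding protein of the matrix, was the second probe of the choice. It ran from 6.15 to 9.9 in old proton, from 5.17 to 12.61 in old sham x3 and from 5.49 to 9.43 in old sham acute tumours, and its differences against sham acute were 0.52 ± 0.69 in old and 0.15 ± 0.71 in adolescent mice (SE, adjusted p = 0.66 and 0.918). Kitl, the ligand of the KIT receptor, was higher in old mice by 0.55 ± 0.19 (adjusted p = 0.0333) and lower in old than in adolescent sham acute tumours by a difference of -0.72 ± 0.20 (adjusted p = 0.00574). Map3k1, Trio, Gnas and Ptpn14, a kinase, a guanine exchange factor, a G protein subunit and a phosphatase, were not called at either age, with old differences of 0.22, -0.22, -0.27 and 0.40.

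Metabolism and solute transport gave 8 genes, of which 3 were higher in old mice and none lower, and 1 was lower in adolescent mice. Cbr2, a carbonyl reductase of lung and other tissues, had 8.26 to 11.03 with a median of 9.9 in old proton, 8.57 to 14.57 with a median of 10.32 in old sham x3 and 6.46 to 9.74 with a median of 8.16 in old sham acute tumours. Its difference of 1.71 ± 0.57 in old mice was the highest of the 100 (SE, adjusted p = 0.0257). Pcyt1a, a rate-limiting enzyme of phosphatidylcholine synthesis, was higher by 0.82 ± 0.20 (adjusted p = 0.00186), and Dhrs7b, an enzyme of ether lipid synthesis, by 0.59 ± 0.10 (adjusted p = 1.71e-05). Slc35e3, a member of the nucleotide sugar transporter family, was lower in adolescent proton tumours, with a difference of -0.45 ± 0.16 (adjusted p = 0.0409).

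Of the 5 genes with no role assigned, Ankhd1, an ankyrin repeat and KH domain protein, was lower in old than in adolescent sham acute tumours by a difference of -0.42 ± 0.14 (SE, adjusted p = 0.0228), and Fryl was higher by 0.71 ± 0.13 (adjusted p = 4.63e-05). Pisd-ps3, Ttc17 and Lrp11 were not called in the comparisons with sham acute tumours or by age.

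**Figure D4:**
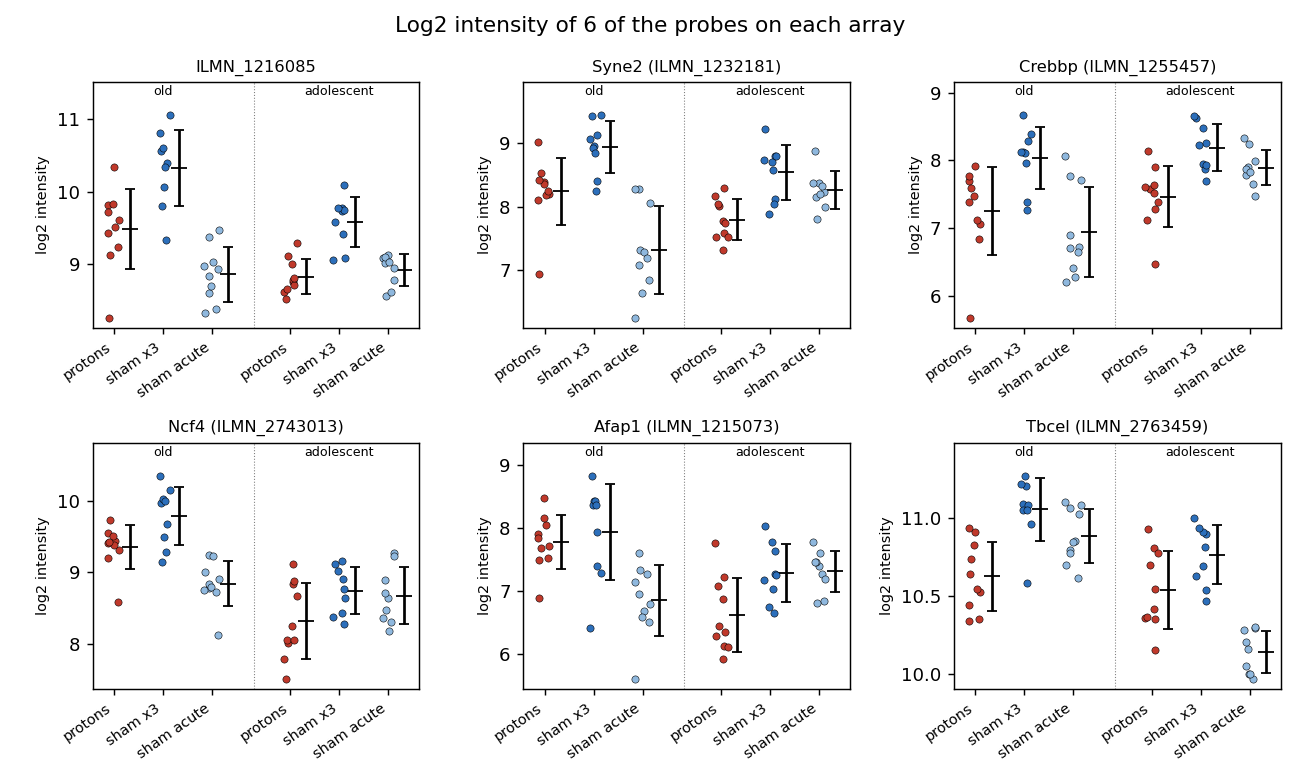
Log2 intensity of 6 chosen probes on each array, old mice on the left of each panel and adolescent mice on the right, with protons, sham x3 and sham acute in each; points are tumours and bars are the mean and SD. In Afap1 the old proton tumours have a median of 7.77 against 6.87 in old sham acute tumours, and adolescent proton tumours 6.39 against 7.39; in Tbcel old proton tumours have 10.59 against 10.85, and adolescent proton tumours 10.48 against 10.16.

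The 19 probes without a symbol included the first of the choice, ILMN_1216085, with a higher difference of -0.743 on the rule's scale. It ran from 8.26 to 10.34 with a median of 9.56 in old proton tumours, from 9.34 to 11.06 with a median of 10.39 in old sham x3 tumours, and from 8.33 to 9.47 with a median of 8.88 in old sham acute tumours. Against sham acute it was higher by 0.62 ± 0.17 in old mice (SE, adjusted p = 0.00792) and differed by -0.09 ± 0.18 in adolescent mice (adjusted p = 0.781). ILMN_1248025 was higher by 0.92 ± 0.18 in old mice (adjusted p = 2.47e-04) and lower in old than in adolescent sham acute tumours, with a difference of -1.12 ± 0.19 (adjusted p = 2.43e-05). Of the 19, 5 were higher in old mice, 3 lower in adolescent mice, and 6 lower and 3 higher by age. Probes without a symbol made up 15.5% of all kept probes. ILMN_1233402, at rank 6 of the choice, was called at neither age. Its differences against sham acute were -0.17 ± 0.17 in old and -0.38 ± 0.17 in adolescent mice (SE, adjusted p = 0.545 and 0.135).

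Among probes without a symbol that were called in adolescent mice, ILMN_2538242 had a difference of -0.89 ± 0.27 (SE, adjusted p = 0.0204), ILMN_1238185 -0.87 ± 0.30 (adjusted p = 0.0358) and ILMN_1244099 -0.81 ± 0.24 (adjusted p = 0.0155). The same probes were lower in old than in adolescent sham acute tumours, with differences of -1.42, -1.46 and -1.28. ILMN_1244099 and ILMN_1238185 moved together over the sham acute arrays (r = 0.98, a description), and ILMN_1232093 stood with them at 0.966 and 0.938. ILMN_2607675 moved with H2-Eb1 at 0.984.

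Of the 77 genes, 53 had another kept probe besides the chosen one, 101 such probes in all. On the rule's scale 38 of the 101 were lower at both ages (37.6%, against 28.5% of all kept probes) and 21 were higher at both. Their median difference was -0.04 in old and -0.04 in adolescent mice, where the chosen probes had -0.42 and -0.37. Of the 53 genes, 12 had every other probe lower at both ages.

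Igfbp5 was one where the other probes were lower too, at -0.20 and -0.20 in old and -0.43 and -0.32 in adolescent mice. Pkm, the pyruvate kinase of glycolysis, had a chosen probe at -0.48 in old and -0.32 in adolescent mice, and another of mean level 13.5 at 0.46 in old and 0.12 in adolescent mice. Syne2, Crebbp, Prrc2c and Gnas each had another probe near 0 or above it at 1 or both ages. The other Crebbp probe was dim, with a mean level of 5.04, while a Gnas probe of mean level 10.2 had 0.82 in old mice. Epb41l2, a membrane skeleton protein, had others at 0.40 and 0.81 in old mice. Which transcripts of a gene each probe reads was not tested.

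**Figure D5:**
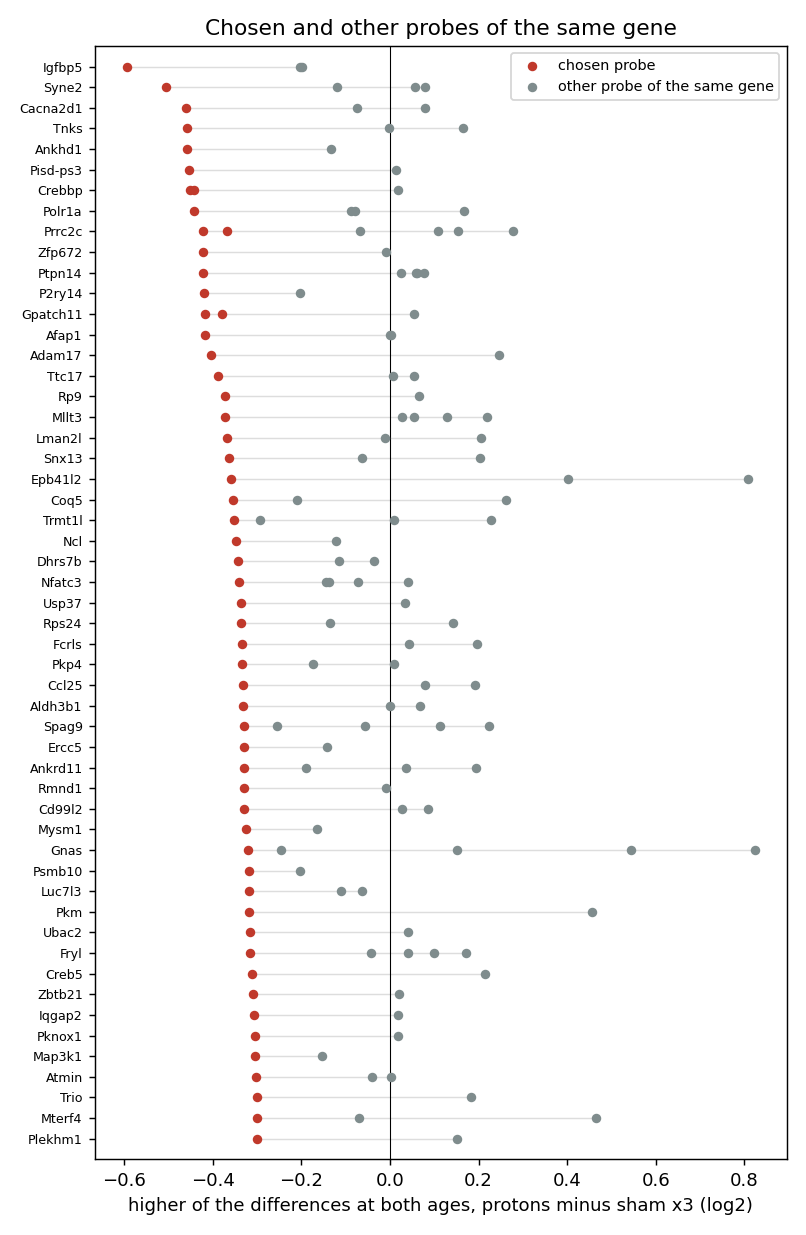
The higher of the proton minus sham x3 differences at both ages (log2, rule's scale) for the chosen probe (red) and every other kept probe (grey) of 53 genes, 1 gene per row. The chosen probes lie at -0.297 or below by the choice, and the other probes of the same gene spread around 0.

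Over the 19 sham acute arrays, with set means removed, the correlation of a pair of chosen probes averaged 0.201 over 4950 pairs, against 0.003 for all pairs of kept probes, and 15% of pairs were above 0.5. The arrays share a platform, and the chosen probes were brighter than the kept probes as a whole (median level 8.93 against 6.85), so the correlation is a description. By average linkage, with the tree cut at a mean r of 0.3, 10 groups formed, of which 5 held 5 or more probes. A group of 35 held Syne2, Crebbp, Prrc2c, Afap1, Ino80d and Kitl, and in it 13 of 35 probes were higher after protons than in sham acute tumours of old mice, and by age in sham acute tumours 12 were lower and 4 higher. Another group of 35 held Gpatch11, Hsph1, Ncl, Rps24, Zbtb21 and Mrpl2, of which 5 were higher after protons in old mice, and by age 6 were higher and 0 lower. A group of 9 held Ncf4, H2-Eb1, Psmb10, Cx3cr1 and Myo1g, and 2 of these were higher in old mice. Of all kept probes, 8.21% were called higher after protons in old mice, and by age 10.7% were lower and 10.5% higher. The group counts are descriptions.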

How the data were processed

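RNA from 57 tumours was measured on Illumina Mouse WG-6 BeadArrays. The AVG_Signal intensities and the detection p-values per probe were used as deposited by the authors, per the file headers, before any scaling between arrays; the submitters' processing notes name GenomeStudio. Per the series' design text, background subtraction and rank invariant normalization were applied for the authors' processed values. Those values of each array were a straight-line rescaling of its intensities (slopes of 0.402 to 4.21) and served as an alternative. Of 45281 probes, 20591 were kept (detection p below 0.05 on at least 10 arrays).

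The choice used quantile-scaled log2 intensities; all other values are log2 after neqc with offset 16. Tests were limma (version 3.58.1, R 4.3.3) on 6 sets over all arrays, with Benjamini-Hochberg adjustment at 0.05 over all kept probes; SE is from that fit. The number of arrays limits the precision. The 100 probes, the gene lists and the roles were chosen with earlier results of these data known. Probes named by rule were the 10 leading the choice, those leading each comparison, those at the choice's edge, genes with 2 probes and list members. Not every value is given for each of these, and other genes were named after their values were seen. Probe names came from the platform annotation, with 81 of the 100 probes under 1 symbol. The fit was tested on simulated data. Alternatives varied background, scaling, filter, arrays and test. Figures were drawn with matplotlib 3.10.9 in Python 3.11.15.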

Additional observations from a re-analysis of the deposited data

Results flagged for a closer look

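Of 222 sets of values examined for a single array far from the rest, 28 had one, where chance gives about 1 in 20 sets, 11.1. Old proton replicate 8 was low for Syne2 (6.94, set median 8.31), Tnks (4.66 against 7.17), Ankhd1 (7.3 against 8.15), ILMN_1248025 (6.13 against 7.36), Crebbp on ILMN_1255457 (5.67 against 7.43) and Prrc2c on ILMN_1239599 (5.78 against 7.75). Old proton replicate 9 was low for Ncf4 (8.59 against 9.42), and old proton replicate 4 was high for H2-Eb1 (10.93 against 8.55).

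Old sham x3 replicate 9 was low for Tnks (6.42 against 7.92), Tbcel (10.58 against 11.09), Prrc2c on ILMN_1239599 (7.55 against 8.84) and the mean of the 100 probes (0.098 against 0.624). Old sham acute replicate 19 was low for ILMN_2538242 (6.71 against 7.98) and Prrc2c, at 5.49 against 7.05 on ILMN_1239599 and 6.28 against 7.8 on ILMN_1241229. Old sham acute replicate 10 was high for Pknox1 (8.78 against 8.16) and low in its detected share (35.44% against 39.345%) and in its intensity at a detection p of 0.5 (114.4 against 180.5). Old sham acute replicate 15 was low for Ncf4 (8.13 against 8.81) and replicate 12 for Hsph1 (10 against 10.89).

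Adolescent proton replicate 1 was high for Igfbp5 (10.7 against 6.28) and low for Prrc2c, at 6.09 against 7.51 and 6.9 against 8.18. Adolescent sham x3 replicate 5 was high for Igfbp5 (11.09 against 7.45) and Cacna2d1 (10.46 against 8.69). It was low in its mean correlation with all other arrays of the series (0.925, set median 0.962). Adolescent sham acute replicate 11 was low for Gpatch11 on ILMN_2511867 (9.01 against 9.45) and in its mean correlation (0.955 against 0.962).

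The proton minus sham acute difference was higher in old than in adolescent mice for 24 of the 100 probes and lower for 1, by limma's test of the difference between the ages (adjusted p below 0.05). The difference is signed, so a higher value in old mice can be a rise there, a fall in adolescent mice, or both. The old minus adolescent difference was 1.62 for Afap1, 1.57 for ILMN_1238185, 1.45 for ILMN_1244099, 1.38 for Syne2, 1.31 for Cacna2d1, 1.3 for ILMN_1248025 and 1.24 for ILMN_1232093. It was 1.13 for ILMN_2538242, 0.87 for Ncf4, 0.718 for ILMN_1216085, 0.671 for Mrpl2 and -0.659 for Tbcel.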

How the results depend on the processing

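The choice repeated on neqc values kept 44 of the 100 probes, on median-scaled values 31, on the authors' processed values 65 and with means in place of medians 45. Counts below are of the 100 probes. The share of all probes called is not given here for each alternative, so a changed count may be a change in calling over the whole array. Against sham acute tumours in old mice, the 23 higher became 9 with the detected share as a covariate, 3 when a change beyond 1.2 times was required (treat), and 0 under one-way ANOVA with Bonferroni adjustment, with only the old sham acute array of stated dose, and under the replicate block. The 1 lower became 2 with array weights and without the 3 outlying sham x3 arrays, 4 with the detected share, 5 with median scaling, and 0 with the authors' values, treat, no filter on dim probes, ANOVA, the stated-dose array, only the sets compared, the replicate block and without old proton arrays 69 to 71. In adolescent mice the 10 lower became 21 with array weights, 16 with median scaling and with only the sets compared, 6 with the authors' values, 5 with the detected share and with no filter, and 0 with treat, ANOVA and the replicate block; the 3 higher became 6 with array weights and 0 with the authors' values, treat, ANOVA and the block. By age in sham acute tumours, the 13 higher became 23 with array weights, 20 with only the sets compared, 3 with treat and 2 with ANOVA and with the stated-dose array, and the 13 lower became 6 with treat and 0 with ANOVA and with the stated-dose array. The 24 whose proton minus sham acute difference was higher in old than in adolescent mice became 11 with treat. The 1 whose difference was lower in old mice became 4 with the detected share. It became 2 with array weights, only the sets compared and without the 3 outlying sham x3 arrays.

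For single probes, 45 called results under their alternatives gave 546 values of the same call and 7 of the opposite sign, and the rest kept their sign and no longer passed. The 7 were, with only the stated-dose array, ILMN_1244099 (-0.185), Syne2 (-0.0464) and ILMN_1248025 (-0.14) for protons in old mice, and Syne2 (0.0246) and Crebbp on ILMN_2695020 (0.182) by age; under the block, Zdhhc5 had -0.00706 in adolescent and -0.0546 in old mice. Equal replicate numbers did not meet the bar for pairing, that every pair correlate above 0.1: 1 of 9 pairs did for old and adolescent sham acute arrays, 1 of 9 for old proton and sham x3 arrays, and 4 of 9 for adolescent proton and sham x3 arrays. Proton and sham acute sets share only number 10, so the block leaves those comparisons almost no information. The causes of these changes were not tested. ANOVA for the difference between ages and a chip block were not run.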
